A study of Homo sapiens with 4 samples.

Results

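The genes described here are 38 genes of the mitotic kinases, the spindle and the kinetochore, read out in human endometrial cancer cells that had received a mimic of a transfer RNA fragment. They were taken by symbol from the deposited table of raw counts, where all 38 were found among 22494 features. RNA sequencing of poly(A) RNA had been carried out on 4 libraries. HEC-1-A and RL-95-2, both established endometrial cancer cell lines, received either the tRF-20-S998LO9D mimic, which copies a fragment of a transfer RNA, or the negative control of mimic. Each line is represented by 1 library per transfection. The labels give no dose or time after transfection, and do not say whether a line's libraries are from separate cultures. The question was which genes differ in cells that carry the mimic.

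Mitosis is started by CDK1, a kinase that needs a cyclin partner, and is then steered by the PLK1 and Aurora kinases. Microtubules of the spindle attach to chromosomes at the kinetochore, and the spindle checkpoint holds the anaphase-promoting complex, with its activator CDC20, in check until every chromosome is attached. Many of these genes are transcribed mainly late in the cell cycle, and their repression outside that window runs through the DREAM complex, which binds a promoter element known as the cell cycle genes homology region (CHR), often together with CCAAT boxes bound by NF-Y. In a bulk library, a larger share of cells in mitosis and more RNA of these genes per cell cannot be told apart.

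Totals ranged from 33575882 to 46220053 counts per library. Epithelial markers (EPCAM, KRT8, KRT18, KRT19 and CDH1) summed to 526 and 432 FPKM in the control and mimic libraries of HEC-1-A, and to 928 and 1845 in those of RL-95-2 (fragments per kilobase of gene, scaled to depth, a level corrected for gene length). Of 5 Müllerian or endometrial markers, PAX8, a lineage factor, stood at 57.6 to 80.3 FPKM in the 4 libraries and HOXA10 at 1.69 to 2.08 FPKM. The other 3 (EMX2, ESR1 and PGR) stayed under 1 FPKM, with EMX2 at 0 in HEC-1-A and 0.24 FPKM in RL-95-2. ESR1 and PGR are the hormone receptor genes. All 6 blood and immune markers also stayed under 1 FPKM in every library. The endothelial gene CDH5 was at 3.11 and 6.11 FPKM in RL-95-2 and was listed at 0 in HEC-1-A. PECAM1, VWF and KDR, the other endothelial markers, stayed under 1 FPKM in every library. The fibroblast collagen gene COL1A1 was at 12.0 and 10.8 FPKM in RL-95-2 control and mimic cells. COL1A2, PDGFRB, DCN and LUM were at 0 or under 1 FPKM throughout.

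Promoters of the members share sequence features that are known for late cell cycle genes. RefSeq promoter sequences (GRCh38.p14, 250 bases before to 50 after the start) were found for 32 of the 38 members. The CHR letters TTTGAA or TTCGAA, searched on both strands, stood in 24 of these 32 windows (75%), against 16.6% of 27305 promoters of the same length. Counting only matches that begin within 50 bases before the start or after it, 19 members (59.4%) and 5.05% of all promoters held the letters. CCAAT, also searched on both strands, was in 26 member promoters (81.2%) and in 35.7% of all promoters, and 21 members (65.6%, against 6.58%) held both motifs. Overlapping matches were counted. Below are the promoters of the members with the highest RL-95-2 ratios among those with an entry and a CHR match (CDC20, PLK1 and MKI67). That of the member with the lowest ratio (CDC25C) is added as a contrast. KIF20A, with the highest RL-95-2 log2 ratio of all members (1.58), has an entry with CCAAT but no CHR letters and is not shown. They run 5′ to 3′ on the strand of the gene, and capitals mark CHR and CCAAT matches.
CDC20, chr1:43358731-43359030, plus strand: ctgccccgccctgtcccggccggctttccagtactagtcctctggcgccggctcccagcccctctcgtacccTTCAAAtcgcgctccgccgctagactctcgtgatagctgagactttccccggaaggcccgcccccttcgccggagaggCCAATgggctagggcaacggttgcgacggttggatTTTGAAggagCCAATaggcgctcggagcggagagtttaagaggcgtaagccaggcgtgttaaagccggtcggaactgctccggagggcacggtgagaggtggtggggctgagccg
PLK1, chr16:23678639-23678938, plus strand: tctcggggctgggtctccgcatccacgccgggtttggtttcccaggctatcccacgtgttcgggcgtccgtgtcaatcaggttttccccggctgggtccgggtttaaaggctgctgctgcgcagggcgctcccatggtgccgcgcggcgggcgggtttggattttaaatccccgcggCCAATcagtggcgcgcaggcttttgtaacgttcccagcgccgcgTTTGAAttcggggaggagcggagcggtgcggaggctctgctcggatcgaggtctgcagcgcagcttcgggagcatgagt
MKI67, chr10:128126374-128126673, minus strand: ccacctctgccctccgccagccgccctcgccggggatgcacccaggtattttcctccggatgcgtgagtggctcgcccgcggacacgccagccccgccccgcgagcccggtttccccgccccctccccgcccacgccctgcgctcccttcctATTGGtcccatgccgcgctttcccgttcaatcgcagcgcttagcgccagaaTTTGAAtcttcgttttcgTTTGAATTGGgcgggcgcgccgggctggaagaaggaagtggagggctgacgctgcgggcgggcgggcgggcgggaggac
CDC25C, chr5:138338306-138338605, minus strand: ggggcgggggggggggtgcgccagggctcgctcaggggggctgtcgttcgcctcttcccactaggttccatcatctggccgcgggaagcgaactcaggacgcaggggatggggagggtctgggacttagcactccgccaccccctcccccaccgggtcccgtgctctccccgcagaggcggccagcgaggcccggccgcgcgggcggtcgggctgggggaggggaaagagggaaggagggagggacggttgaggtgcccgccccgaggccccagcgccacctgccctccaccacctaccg
In PLK1 the TTTGAA begins 29 bases before the start, and in MKI67 such matches begin 47 and 29 bases before it. In CDC20 the match on the gene's strand begins 65 bases before the start, between CCAAT boxes. The CDC25C window holds neither motif. That window follows the RefSeq start of CDC25C, and other starts of the gene were not searched. A match of letters is not a binding site. In RL-95-2 the median log2 ratio of mimic over control was 0.23 for the 24 members with CHR letters and 0.32 for the 8 members without, and in HEC-1-A it was 0.09 and 0.14.

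All 38 members were well expressed in both lines. The lowest count of any member in any library was 532 and the highest 49078, and the 95% counting interval of a log2 ratio reached at most 0.16 to a side, averaged over both sides. These intervals cover counting error only, because they come from the counts alone and hold no spread between replicates. Whether fragments were counted with molecular identifiers is not given in the sources used here, which is a further limit of the intervals. Per gene length, UBE2C, the ubiquitin-conjugating enzyme of the anaphase-promoting complex, stood highest on average. Its HEC-1-A control was at 129 FPKM and the matching mimic library at 144, and RL-95-2 had 122 FPKM without and 134 with the mimic. TOP2A, the topoisomerase that untangles replicated DNA, followed at 114, 117, 104 and 135 FPKM in the same order, and CDC20 at 99.8, 100.3, 61.5 and 144 FPKM. Lowest were CDC25C, a phosphatase that activates CDK1 (6.87, 6.94, 8.06 and 5.81 FPKM), CENPE, a kinetochore motor (7.10, 7.32, 8.58 and 11.6 FPKM), and the spindle pole gene ASPM (14.1, 16.0, 14.6 and 23.9 FPKM). The median level over the 38 genes was 39.0, 37.1, 37.7 and 49.0 FPKM in the 4 libraries, with the RL-95-2 mimic library highest.

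**Figure D1:**
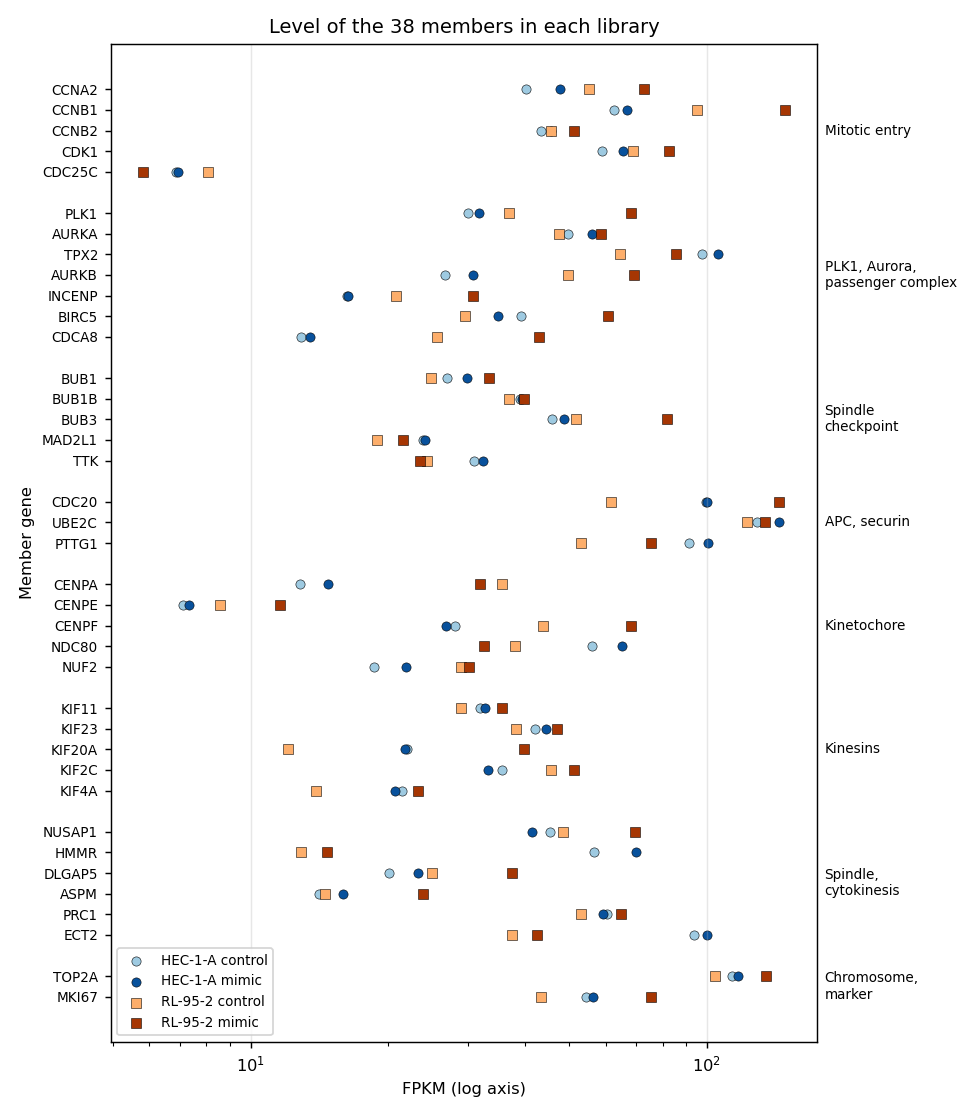
Level of each of the 38 members in the 4 libraries, in FPKM on a log axis, grouped by role. Circles are HEC-1-A and squares RL-95-2, light for control and dark for mimic. CDC25C and CENPE lie lowest and UBE2C near the top, and HMMR and ECT2 show HEC-1-A apart from RL-95-2.

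Most members were slightly higher in the mimic library in either line, and the size differed. Within a line, 1 library stood against 1, so these differences have no replicate check and no p-value. The members were also chosen with earlier results of these data known, so the shares below only describe them. Levels were set as counts scaled to depth with the trimmed mean of M values (TMM-scaled CPM), and ratios of mimic over control were taken on the log2 scale. Summed over the 38 members, the level was 6449 CPM in the HEC-1-A control and 6884 CPM in its mimic library (6.75% higher), and 5970 and 7611 CPM in RL-95-2 (27.5% higher). The median log2 ratio of the members was 0.10 in HEC-1-A, where that of all 12981 features tested was 0.02, and 0.26 in RL-95-2, where that of all 13151 features was 0.00. In each line 30 of the 38 members (78.9%) lay above 0, against 53.6% of all HEC-1-A features, while RL-95-2 had 50.1%. Of the members, 24 (63.2%) were above 0 in both lines, a pattern held by 23.9% of 11913 features, while 6 were above 0 in HEC-1-A alone, 6 in RL-95-2 alone and 2 (CDC25C and BUB3) in neither. Scaling by library total raised the RL-95-2 member median to 0.39 and that of all features to 0.13, so the distance between them stayed near that of the TMM values.

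At a 2-fold limit the members were near the background. At least 2-fold apart in RL-95-2 were 2 members, both higher (5.26% of members, against 4.71% of all features), and no member was at least 2-fold lower, where 6.52% of features were. In HEC-1-A no member reached 2-fold in either direction, where 0.871% of features were higher and 0.239% lower. At a 1.5-fold limit, 8 members were higher with the mimic in RL-95-2 (21.1%, against 14.5% of features) and 1 was lower (2.63%, against 15.5%), while HEC-1-A again had 0, where 3.44% and 1.32% of features were.

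**Figure D2:**
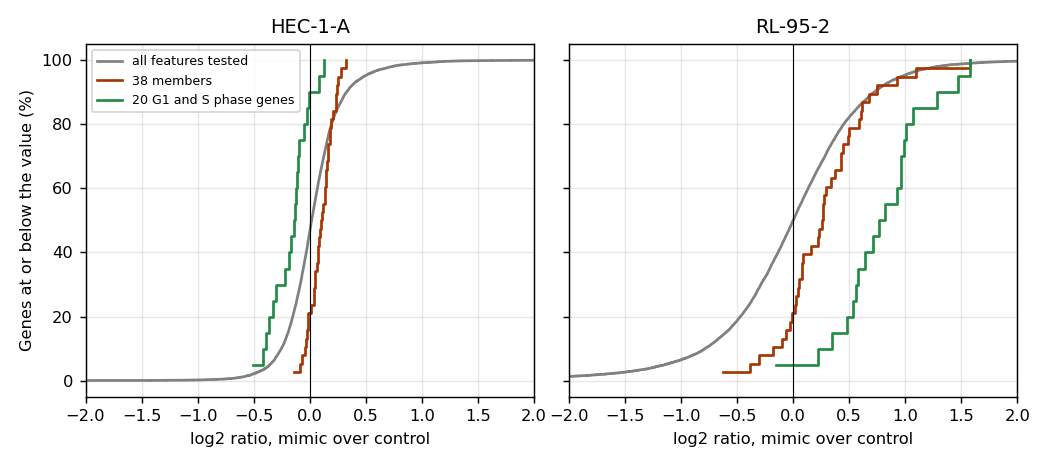
Cumulative share of genes (percent) at or below each log2 ratio of mimic over control, for HEC-1-A on the left and RL-95-2 on the right, drawn from -2 to 2. Grey is all features tested, brown the 38 members and green 20 genes of the G1 and S phases. The members cross 50% at 0.10 in HEC-1-A and at 0.26 in RL-95-2, while the G1 and S phase genes lie mostly left of 0 in HEC-1-A and far to the right in RL-95-2.

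Over both lines, no member passed the test. In edgeR's quasi-likelihood fit with the line as a block, 0 of 15957 features were called higher (0%) and 0 lower (0%) at an adjusted p under 0.05. At an unadjusted p under 0.05 there were 92 higher (0.577%) and 75 lower (0.470%), and 0 members. DESeq2 and limma-voom also called 0 members. The lowest unadjusted p of a member was that of KIF20A (0.0858, edgeR, log2 fold change 0.80, SE 0.39, n = 2 per transfection), and the adjusted p of every member was 0.9999. Fitted standard errors of the members ran from 0.22 to 0.39 on the log2 scale, about the size of most of the changes, and rest on 1 residual degree of freedom moderated by a spread pooled over genes. Marker levels also differed between the RL-95-2 libraries. KRT8 was at 171 FPKM without and 728 with the mimic, which makes up most of the gap in the epithelial sum, while EPCAM was at 81.0 and 76.9. The endothelial markers summed to 3.13 and 6.13 FPKM, nearly all CDH5, and the fibroblast markers to 12.1 and 10.9, nearly all COL1A1. The part of these levels in the members' ratios was not tested.

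Of the 5 genes of mitotic entry, CCNA2, CCNB1 and CDK1 had counting intervals above 0 in both lines. CCNA2, the cyclin of S phase and early mitosis, stood at 127 CPM without and 154 CPM with the mimic in HEC-1-A, and at 179 and 214 CPM in RL-95-2. Both mimic libraries lay above their controls by nearly the same log2 ratio, 0.28 in HEC-1-A (0.22 to 0.33, the 95% interval from counting) against 0.26 (0.22 to 0.31) in RL-95-2. CCNB1, the main mitotic cyclin, was at 149 and 162 CPM in HEC-1-A and at 237 and 333 CPM in RL-95-2, with log2 ratios of 0.12 and 0.49. CCNB2, a second B-type cyclin, had log2 ratios of 0.09 (0.02 to 0.16) and 0.05, where the RL-95-2 interval of -0.01 to 0.12 spanned 0. CDK1 had 0.18 and 0.08. CDC25C went the other way in RL-95-2, with 17.4 CPM in the control and 11.3 CPM in the mimic library, which is 1.54-fold lower (log2 ratio -0.63, interval -0.79 to -0.47). In HEC-1-A its libraries were at 16.1 and 15.7 CPM (log2 ratio -0.03, interval -0.19 to 0.14). Of its exonic bases, 10.7% overlap FAM53C on the other strand in GENCODE release 29, and whether counting used strand is not stated in the sources used here. The same limit holds for other members with opposite-strand overlaps. These cover 5.1% of the exonic bases of CCNA2 (EXOSC9), 7.0% of PLK1 (AC008870.3), 6.1% of KIF23 (AC027237.3) and 8.0% of PRC1 (PRC1-AS1). Smaller shares of KIF2C, HMMR, KIF20A and MAD2L1 are also covered.

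The 7 genes of PLK1, the Aurora kinases and the chromosomal passenger complex all lay above 0 in RL-95-2, with log2 ratios from 0.26 to 0.93 (median 0.43). PLK1, which drives centrosome maturation and many later steps, was at 95.1 CPM in the RL-95-2 control and 160 CPM in the mimic library, and at 74.9 and 81.0 CPM in HEC-1-A. Its RL-95-2 mimic library stood well above the other libraries, and its log2 ratios were 0.11 (0.04 to 0.19) and 0.75 (0.70 to 0.81). BIRC5, which encodes survivin, the passenger subunit that also carries an inhibitor-of-apoptosis domain, was at 113 and 103 CPM in HEC-1-A and at 84.6 and 161 CPM in RL-95-2. The lines thus had opposite signs, -0.14 (-0.20 to -0.08) in HEC-1-A against 0.93 (0.87 to 0.99) in RL-95-2, and the RL-95-2 control was the lowest and its mimic the highest of the 4 libraries. CDCA8, which encodes borealin, was at 35.6 and 38.1 CPM in HEC-1-A and at 70.2 and 108 CPM in RL-95-2, with log2 ratios of 0.10 and 0.62. INCENP, the scaffold of the complex, had 0.04 and 0.43.

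The Aurora kinases themselves were closer between the lines. AURKA, the spindle pole kinase, stood at 113 and 133 CPM in HEC-1-A and at 106 and 127 CPM in RL-95-2 (log2 ratios 0.24 and 0.26). AURKB, the kinase of the passenger complex, was at 34.1 and 40.1 CPM in HEC-1-A and at 65.3 and 82.7 CPM in RL-95-2 (0.23 and 0.34). TPX2, the microtubule protein that activates Aurora A, had log2 ratios of 0.14 and 0.27.

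By counts, spindle checkpoint genes showed little difference in either line. Their log2 ratios ran from -0.01 to 0.18 in HEC-1-A and from -0.18 to 0.28 in RL-95-2, with medians of 0.05 and -0.03. BUB1, a checkpoint kinase, was highest, at 0.18 and 0.28. TTK, the kinase known as MPS1 that starts checkpoint signalling, was at 110 and 117 CPM in HEC-1-A and at 89.6 and 79.0 CPM in RL-95-2, so that the mimic library was above its control in the first line and below it in the second (0.09, interval 0.03 to 0.15, and -0.18, interval -0.25 to -0.12). BUB1B, which encodes BUBR1, had 0.05 and -0.03, MAD2L1, which encodes MAD2, 0.05 in each line, and BUB3, the partner of BUB1 and BUBR1, -0.01 and -0.10. The signs of BUB1B and BUB3 in RL-95-2 turned positive with scaling by library total and in FPKM. On log2(FPKM + 1) the RL-95-2 ratio of BUB3 was 0.65, far from its value by counts. BUB1B shares 172 exonic bases with the read-through gene BUB1B-PAK6, which held 5 and 57 counts in the RL-95-2 control and mimic libraries, so a small part of its reads is uncertain.

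Around the anaphase-promoting complex, CDC20 and its partners differed. CDC20 was at 190 and 196 CPM in HEC-1-A, and at 120 and 257 CPM in RL-95-2, where the mimic library was 2.13-fold above the control (log2 ratio 1.09, interval 1.05 to 1.14). With GC and length trends removed, an alternative chosen after seeing the data, this log2 ratio was 0.98, under 2-fold. In HEC-1-A the interval of its log2 ratio, -0.01 to 0.09, spanned 0. PTTG1, which encodes securin, the inhibitor of separase, had log2 ratios of 0.16 and 0.43, and its near-copy PTTG2 held at most 2 counts in any library. UBE2C had 0.19 in HEC-1-A against -0.01 in RL-95-2, a value whose sign turned with scaling by library total.

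The kinetochore genes were mixed. NDC80, the microtubule-binding subunit of the outer kinetochore, stood at 132 and 157 CPM in HEC-1-A and at 91.8 and 70.2 CPM in RL-95-2. The HEC-1-A mimic library was above its control (log2 ratio 0.25, interval 0.20 to 0.30) and the RL-95-2 mimic library 1.31-fold below its own (-0.39, interval -0.45 to -0.32). CENPA, the centromeric histone H3 variant, had the same pattern, with 21.2 and 24.4 CPM in HEC-1-A and 59.2 and 48.0 CPM in RL-95-2 (0.21 and -0.30). NUF2, which forms a dimer with NDC80, had log2 ratios of 0.16 and -0.07, the second of which turned positive with scaling by library total. CENPF, a large outer kinetochore protein, was at 328 and 320 CPM in HEC-1-A and at 523 and 742 CPM in RL-95-2 (-0.04 and 0.50). CENPE had 0.15 and 0.30. NDC80 and NUF2, subunits of a single complex, thus had different ratios in RL-95-2.

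Among the kinesins, KIF20A had the highest ratio of all members. KIF20A, a motor of the central spindle and cytokinesis, went from 44.8 CPM in the RL-95-2 control library to 134 CPM with the mimic, 2.98-fold higher (log2 ratio 1.58, interval 1.5 to 1.66). In HEC-1-A it was at 79.7 and 80.6 CPM (0.02, interval -0.06 to 0.09, with a sign that turned under library-total scaling), so that the RL-95-2 control was lowest and the RL-95-2 mimic highest of the 4 libraries. KIF20A shares 68 exonic bases (2.12%) with CDC23 on the other strand, a subunit of the anaphase-promoting complex whose RL-95-2 log2 ratio was 0.42. KIF4A, a chromosome-bound kinesin, had -0.02 and 0.61, and its near-identical copy KIF4B held between 13 and 23 counts per library. KIF11, the motor that separates spindle poles, had 0.07 and 0.16, and KIF23, a cytokinesis motor, 0.14 and 0.08. KIF2C, which depolymerises microtubules, was at 114 and 109 CPM in HEC-1-A and at 150 and 152 CPM in RL-95-2, with log2 ratios of -0.07 (interval -0.13 to -0.01) and 0.01. The sign of the second turned with RLE size factors.

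The 6 spindle-associated and cytokinesis genes all lay above 0 in RL-95-2, with log2 ratios from 0.02 to 0.59. HMMR, a spindle protein also known as a hyaluronan receptor, had the highest HEC-1-A ratio of all members, with 193 CPM in the control and 241 CPM in the mimic library (log2 ratio 0.32, interval 0.27 to 0.36). In RL-95-2 it stood at 45.2 and 45.9 CPM (0.02). DLGAP5, which stabilises spindle microtubules, was at 67.3 and 79.7 CPM in HEC-1-A and at 84.5 and 115 CPM in RL-95-2 (0.24 and 0.45). ASPM was at 171 and 189 CPM in HEC-1-A and at 168 and 253 CPM in RL-95-2 (0.15 and 0.59). NUSAP1, a microtubule bundling protein, was at 116 and 109 CPM in HEC-1-A and at 128 and 165 CPM in RL-95-2, again with opposite signs (-0.09, interval -0.15 to -0.03, and 0.37, interval 0.32 to 0.42). In GENCODE release 29, 72.8% of the exonic bases of NUSAP1 are shared with AC087721.2 on the same strand, and 65.2% of those of PRC1 with AC068831.7, also on the same strand. No feature of either name was matched in the counts, and how reads of these bases were assigned is not stated in the sources used here, so the values of NUSAP1 and PRC1 are uncertain. PRC1, the crosslinker of the central spindle, had -0.03 and 0.22, and ECT2, the exchange factor that activates RhoA at cytokinesis, 0.14 and 0.09.

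Both genes of chromosome structure and proliferation were higher with the mimic. MKI67, the gene of the proliferation antigen Ki-67, was at 780 and 823 CPM in HEC-1-A and at 623 and 996 CPM in RL-95-2. Its RL-95-2 libraries were the lowest and the highest of the 4, and its log2 ratios were 0.08 and 0.68. TOP2A had 0.07 and 0.23.

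**Figure D3:**
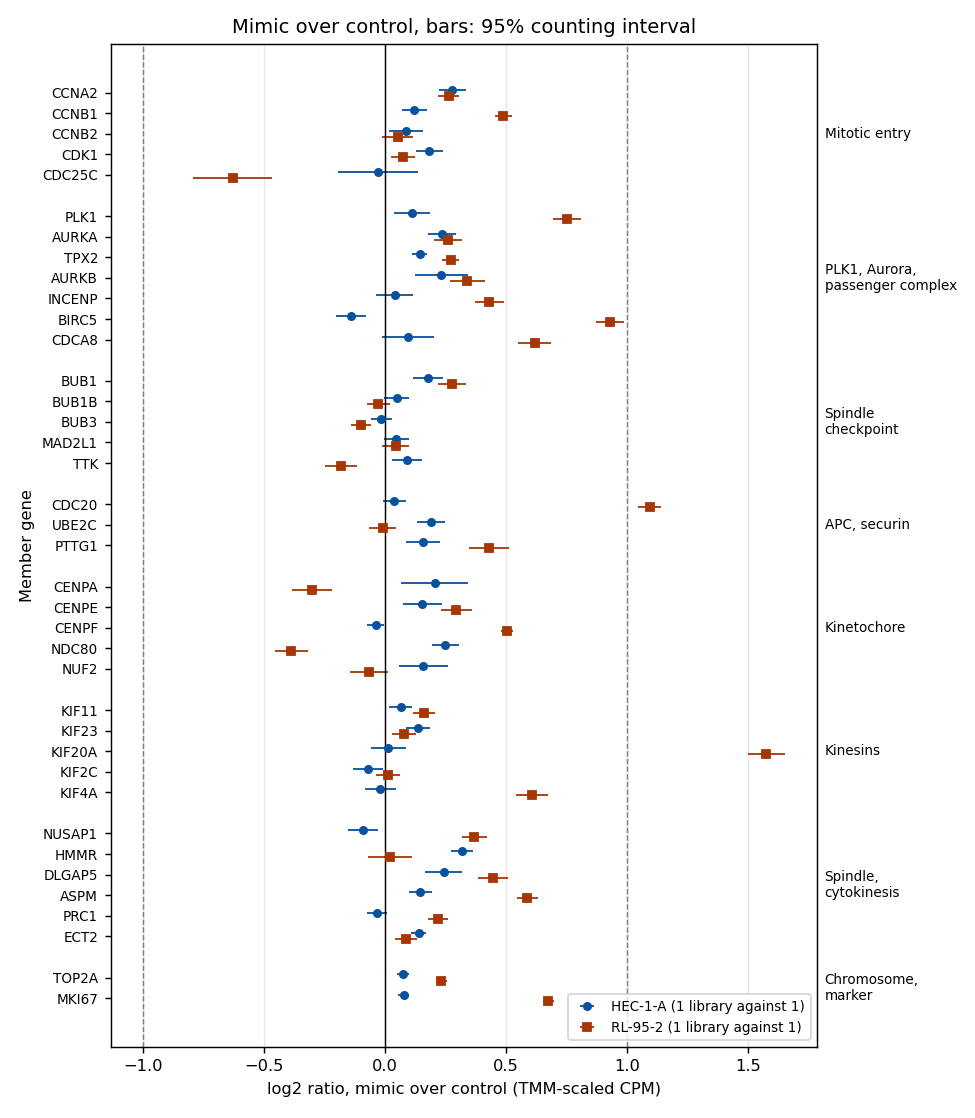
Log2 ratio of mimic over control for each member, grouped by role, with 95% counting intervals as bars. Blue circles are HEC-1-A, brown squares RL-95-2, and dashed lines mark 2-fold. KIF20A and CDC20 in RL-95-2 are the points beyond 2-fold, and CDC25C in RL-95-2 is the lowest at -0.63.

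The 4 members furthest apart between the lines all had the higher ratio in RL-95-2. The RL-95-2 log2 ratio exceeded that of HEC-1-A by 1.56 for KIF20A, 1.07 for BIRC5, 1.05 for CDC20 and 0.64 for PLK1. NDC80 followed in the other direction, at -0.64. Of the 38 members, 23 (60.5%) had the higher ratio in RL-95-2, against 49.0% of all features. With 1 library per line and transfection, how far the lines differ in response could not be tested.

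Levels in the lines, taken over both transfections, differed for 8 members. In the same edgeR fit, 3 members were higher in HEC-1-A (7.89%, against 16.7% of 15957 features) and 5 were higher in RL-95-2 (13.2%, against 18.3%), with 45.7% of all features at an unadjusted p under 0.05. HMMR was 4.73-fold higher in HEC-1-A (log2 fold change 2.24, SE 0.24, adjusted p = 9.58e-04, n = 2 libraries per line), with all HEC-1-A libraries above all RL-95-2 libraries. ECT2 stood at 442 and 487 CPM in HEC-1-A and at 175 and 186 CPM in RL-95-2, 2.58-fold higher in HEC-1-A (edgeR log2 fold change 1.37, SE 0.26, adjusted p = 0.00831). NDC80 was 1.79-fold higher there (edgeR adjusted p = 0.0463), and its groups of libraries did not overlap. For how many of all features the lines stand apart in this way was not counted. It adds no support to the calls of HMMR and NDC80.

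Higher in RL-95-2 were CDCA8, CENPA, AURKB, CENPF and CCNB1. CDCA8 was 2.36-fold higher (edgeR log2 fold change -1.24 for HEC-1-A over RL-95-2, SE 0.25, adjusted p = 0.0109) and CENPA 2.34-fold (-1.23, SE 0.25, adjusted p = 0.0117). AURKB was 1.99-fold higher (edgeR adjusted p = 0.0170), CENPF 1.92-fold (adjusted p = 0.0425) and CCNB1 1.80-fold (adjusted p = 0.0422). In each of these 5 genes both RL-95-2 libraries lay above both HEC-1-A libraries. This was not counted over all features either, and adds no support to their calls. The other 30 members did not pass, with log2 fold changes of HEC-1-A over RL-95-2 from -0.66 (PLK1) to 0.63 (PTTG1), and the median over all 38 was 0.02. This median was near 0 with either sign: it was -0.04 with scaling by library total, and -0.13 when the control libraries were left out. DESeq2 also placed TPX2 and PTTG1 higher in HEC-1-A (adjusted p = 0.0393 and 0.0378). The libraries of a line differ in transfection and may share a culture, so the p-values speak only for the spread of these libraries.

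**Figure D4:**
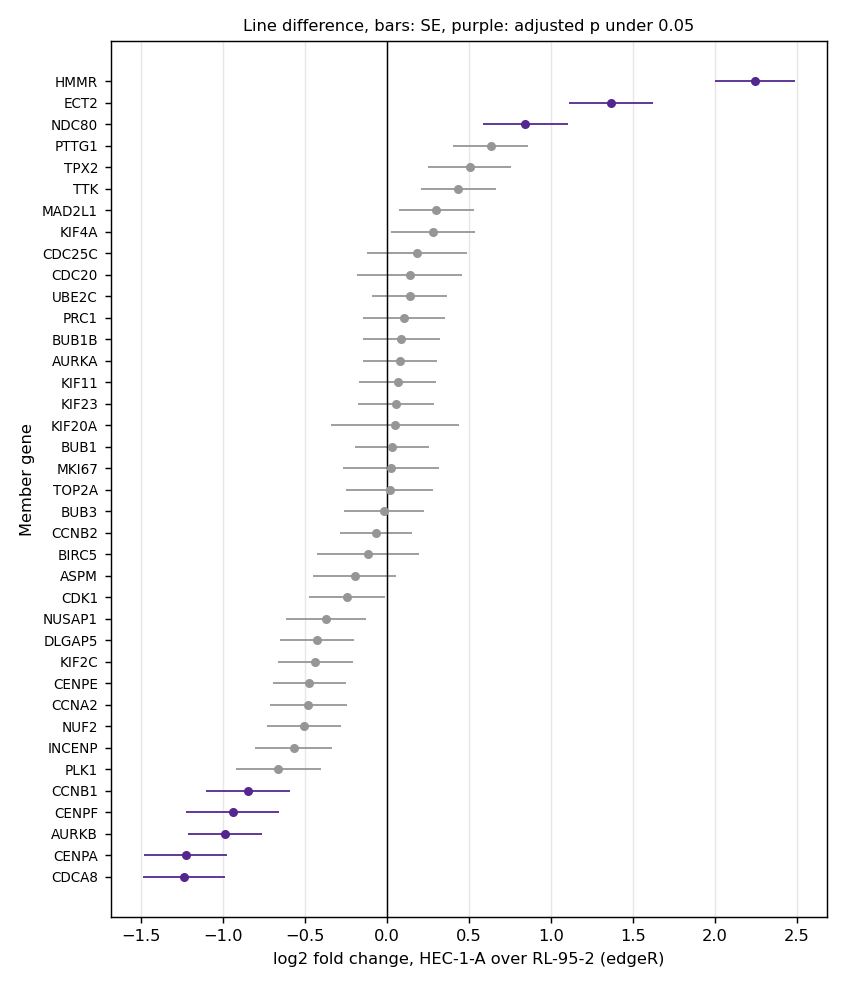
Log2 fold change of HEC-1-A over RL-95-2 for each member from the edgeR fit over 4 libraries, sorted, with the standard error as bars. Purple marks the 8 members with an adjusted p under 0.05, from CDCA8 at -1.24 to HMMR at 2.24.

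Other genes of the same machinery were taken from further lists, whose medians differed. Further kinetochore and centromere genes had median log2 ratios of 0.05 in HEC-1-A against 0.29 in RL-95-2, with 20 and 24 of 32 above 0. CENPW, a subunit of the inner kinetochore, had 0.55 and 1.22, and CENPL, another inner subunit, 0.33 and 0.15. CENPI had 0.21 and 0.96. Lowest in RL-95-2 were KNTC1, a checkpoint protein of the outer kinetochore, at -0.54, and SKA1, which couples kinetochores to microtubules, at -0.44, and lowest in HEC-1-A were MAD1L1 at -0.27 and SPC25 at -0.22. For further spindle, motor and cytokinesis genes the medians were 0.05 and 0.36, with 14 and 15 of 22 above 0. SPAG5, which encodes astrin, had -0.03 and 1.02 and KIF18B 0.14 and 0.76. CKAP2L had 0.14 and -0.59, KIF14 0.16 and -0.39, DEPDC1 0.33 and -0.27, CEP55 0.30 and 0.38, NUMA1 -0.21 and -0.17, and KIF22 -0.28 and 0.64.

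Core subunits of the anaphase-promoting complex, with its coactivator and inhibitor genes, had medians of 0.09 in HEC-1-A against 0.14 in RL-95-2 (9 and 11 of 17 above 0). ANAPC2, its cullin subunit, had -0.36 and 0.997, just under 2-fold, ANAPC15 0.35 and 0.92, ANAPC13 0.34 and -0.15, CDC16 -0.14 and 0.14, UBE2S 0.17 and -0.28 and ANAPC16 -0.02 and -0.31. Condensin and cohesin genes, which shape and hold together sister chromatids, gave medians of 0.03 and 0.01, with 13 and 10 of 20 above 0. SGO2, a protector of cohesion, had 0.15 and 0.74, and SMC1A, a cohesin subunit, -0.08 and 0.71, while STAG2 had 0.02 and -0.74 and WAPL, which releases cohesin, 0.14 and -0.57. NCAPG had 0.30 and -0.07, SMC2 0.23 and 0.37, PDS5A -0.10 and -0.45 and NCAPH -0.20 and 0.25.

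Further mitotic kinases, phosphatases and their regulators gave medians of 0.05 and 0.08, with 12 of 21 above 0 in HEC-1-A against 12 of 20 in RL-95-2. CCNF, the cyclin F gene, had 0.08 and 0.72 and GTSE1 0.02 and 0.72. WEE1, the kinase that restrains CDK1, had 0.05 and -0.57, and NEK9 -0.04 and -0.57. CDC25A, a phosphatase that activates cyclin-dependent kinases, had 0.26 and 0.39, CDC25B -0.18 and -0.06 and PRR11 -0.20 and -0.02. The read-through gene BUB1B-PAK6, second highest of this list in HEC-1-A at 0.24, was under the minimum level in RL-95-2.

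Regulators of late cell cycle transcription were near 0 as a list. The medians of 19 FOXM1, B-MYB, E2F and DREAM genes were -0.04 in HEC-1-A against -0.02 in RL-95-2, with 5 and 9 above 0. FOXM1, a transcription factor of mitotic genes, stood at 167 and 174 CPM in HEC-1-A and at 155 and 225 CPM in RL-95-2 (log2 ratios 0.06 and 0.54). MYBL2, which encodes B-MYB, had 0.18 and 0.25. E2F1 stood at 66.4 and 66.2 CPM in HEC-1-A and at 26.9 and 57.9 CPM in RL-95-2 (0.00 and 1.11). E2F2 had 0.17 and 0.86, E2F8 -0.01 and 0.94, E2F5 -0.07 and -0.84, LIN37 -0.28 and -0.04, and TFDP2, an E2F partner, -0.32 and -0.87.

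Genes of the G1 and S phases gave other medians than the members. Of 20 such genes, which act in the start and course of DNA replication, 2 were above 0 in HEC-1-A against 19 in RL-95-2, and their medians were -0.14 and 0.80, against 0.10 and 0.26 for the mitotic members. In HEC-1-A, CCNE2, a cyclin of the start of S phase, had -0.51 and GINS2, a replicative helicase subunit, -0.42, while CDC6 had 0.13 and CDC45 0.09. In RL-95-2, MCM5 had 1.58 and GINS2 1.47, CCND1 0.22 and CDC6 -0.15. At least 2-fold higher in RL-95-2 were 5 of these 20 genes and 2 of the 38 members (5.26%), where 4.71% of all features were. Neither the distance between the lists nor that between the lines could be tested with 1 library per arm. The lists, too, were chosen with earlier results of these data known.

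**Figure D5:**
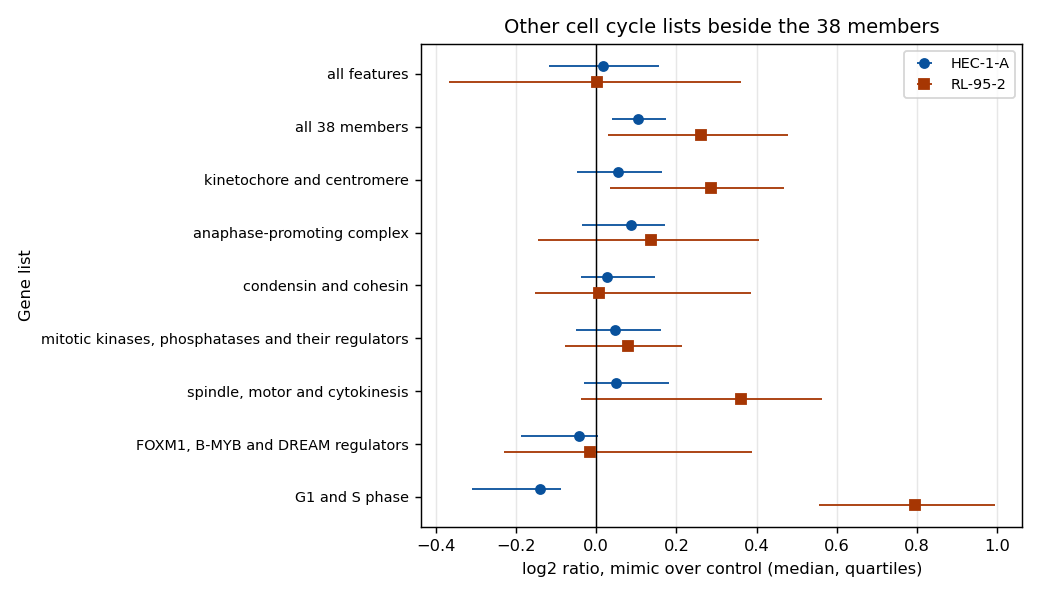
Median log2 ratio of mimic over control for each gene list, with bars from the lower to the upper quartile over genes, for HEC-1-A (blue circles) and RL-95-2 (brown squares). The 38 members are at 0.10 and 0.26, all features near 0 in either line, and the G1 and S phase genes at -0.14 and 0.80.

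In the line comparison, genes of the further lists were read against the share of all 15957 features that the edgeR test called, 16.7% higher in HEC-1-A and 18.3% higher in RL-95-2. Values are log2 fold changes of HEC-1-A over RL-95-2. Of 32 further kinetochore genes, 1 was called higher in HEC-1-A (SKA2, 0.95) and 1 in RL-95-2 (KNL1, -1.13). Of 22 further spindle genes the numbers were 0 and 3 (CKAP2L, KIF14 and CIT, -1.36, -1.18 and -0.90). For the anaphase-promoting complex they were 2 (UBE2S and FBXO5, 1.13 and 0.87) and 2 (FZR1 and ANAPC4, -1.14 and -0.90) of 17, and for condensin and cohesin 2 (PDS5B and STAG1, 1.12 and 1.0) and 2 (RAD21 and ESPL1, -2.09 and -1.31) of 20.

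Among 21 further kinases and regulators, 4 were called higher in HEC-1-A: NEK6 (3.30), BUB1B-PAK6 (3.09), PRR11 (1.05) and CKS2 (0.91). Called higher in RL-95-2 were 6: NEK2, a centrosomal kinase (-1.58), CCNF (-1.51), WEE1 (-1.16), BORA (-0.99), ENSA (-0.87) and CKS1B (-0.73). Among 19 transcription regulators, TFDP2 (2.05) and RB1 (0.75) were higher in HEC-1-A, and LIN9, a subunit of the DREAM core (-1.69), E2F7 (-1.69) and E2F3 (-0.80) in RL-95-2. FOXM1 was not called (edgeR log2 fold change -0.13, adjusted p = 0.720). Of the 20 G1 and S phase genes, CCND1 (1.33) was higher in HEC-1-A, and CCNE2 (-1.90), MCM4 (-1.77), UHRF1 (-1.49) and CDC45 (-0.79) in RL-95-2.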

How the data were processed

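Grouping by line and transfection follows the labels. A table of raw counts and a table of FPKM, both deposited by the authors, cover the same 4 libraries. CASAVA, HISAT2 and GRCh38 (hg38) were used, per the submitters' processing notes. Which counter, annotation, strand setting and FPKM tool were used is not given in the sources used here, so opposite-strand overlaps could not be resolved.

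Counts of all features were tested with edgeR 4.0.16 (R 4.3.3): TMM scaling, filterByExpr on the transfection groups, the quasi-likelihood test, and p-values adjusted by Benjamini-Hochberg over 15957 features at 0.05. The model held line and transfection. Libraries were paired by the cell line in their labels, so the line was the replicate block. The SE was taken as the log2 fold change over the square root of F. The labels name no separate cultures, so a p-value speaks only for the spread of these libraries, which may be technical. Within a line, log2 ratios of TMM-scaled CPM (prior count of 2) have exact 95% intervals from the counts, and features under a line mean of 1 CPM were left out. Alternatives used DESeq2 1.42.0 and limma 3.58.1, with log2(FPKM + 1) and log2(FPKM + 0.1) as the FPKM scales, other scalings, filters, prior counts and thresholds, a fit with no block, and each line or transfection left out. Removal of GC and length trends was added after seeing the data. Sequences came from RefSeq (GRCh38.p14) and exon overlaps from GENCODE release 29.

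The members and lists were chosen with earlier results of these data known. Named with values in each library are members at least 2-fold apart, the 6 highest and 4 lowest ratios in each line, the 4 furthest apart between lines, up to 4 per direction called between lines, and the 3 highest and 3 lowest levels. From each further list, the 2 highest and 2 lowest ratios per line, FOXM1 and the genes called in a test are named. Every other member is given by its log2 ratios. The values of CCNB1 in each library, and those of KRT8 and EPCAM, were added after they were seen.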

Additional observations from a re-analysis of the deposited data

Results flagged for a closer look

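For 6 members the log2 ratio of mimic over control had opposite signs in the lines, with counting intervals that excluded 0 in each. With HEC-1-A given first and RL-95-2 second, BIRC5 had -0.139 and 0.929, CENPF -0.0383 and 0.504, and NUSAP1 -0.0912 and 0.371. In the other direction NDC80 had 0.250 and -0.386, CENPA 0.206 and -0.300, and TTK 0.0906 and -0.182. Opposite signs are not particular to the members. Among all features tested in both lines, opposite signs were more common than equal signs, while among the members they were less common. For how many of all features the intervals also excluded 0 in each line was not counted. Each line had 1 library per transfection, so the difference between lines was not tested, and the intervals cover counting error only. These 6 members kept their signs in both lines under all 6 alternatives that recompute the ratio (other scalings, a smaller prior count, both FPKM scales, and GC and length trends removed).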

How the results depend on the processing

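With no replicate block, 0 members were called for the mimic, as with the block, and for the line 3 and 5. The member median over both lines was 0.19, against 0.26 without HEC-1-A (without replicate 1) and 0.10 without RL-95-2 (without replicate 2). Leaving out a pair leaves no test, so no counts of calls exist there. Over all features, DESeq2 called 1 higher and 1 lower with the mimic, and limma on log2(FPKM + 0.1) called 2 and 1. DESeq2 called 5 members higher in HEC-1-A, and at least 1 CPM in all 4 libraries left 1673 and 1671 features called between lines among fewer tested. In RL-95-2 the member median moved from 0.26 to 0.39 with scaling by library total, 0.40 on log2(FPKM + 1) and 0.40 on log2(FPKM + 0.1), and that of all features to 0.13, 0.11 and 0.14. Members at least 2-fold higher there numbered 1 with GC and length trends removed (KIF20A) and 3 with scaling by library total and on both FPKM scales, where BIRC5 also passed, and at 1.5-fold 8 were higher and 1 lower. Background counts at 2-fold moved too. In HEC-1-A, 113 higher and 31 lower became 18 and 11 at a minimum of 5 CPM, 13 and 13 on log2(FPKM + 1), 1165 and 703 with no minimum, and 446 and 171 at 1.5-fold. In RL-95-2, 619 and 857 became 336 and 605, 352 and 375, 1691 and 1820, and 1911 and 2032 in that order, and 866 and 686 with scaling by library total, which turns the majority to higher. The member median between lines, 0.02, became -0.04 under library-total scaling and on both FPKM scales, -0.02 with no replicate block, and between -0.13 (without the control libraries) and 0.03 (without the mimic libraries) with a transfection left out. The causes were not tested. Of the members, 4 in HEC-1-A (CDC25C, BUB3, KIF20A and KIF4A) and 5 in RL-95-2 (BUB1B, BUB3, UBE2C, NUF2 and KIF2C) changed the sign of a small ratio under at least 1 alternative.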

Other observations

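For BUB3 in RL-95-2 the deposited tables disagree. Its counts were 8958 and 10566 in the control and mimic libraries (log2 ratio -0.10 after TMM scaling), while its FPKM values were 51.8 and 81.9. The log2 ratio in FPKM exceeded that in counts per total by 0.63. A gap of at least 0.5 in either direction held for 63 of 11773 features (0.535%) with at least 100 counts in both RL-95-2 libraries, and for no other member.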
